A study of Mus musculus with 7 samples.

Results

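Flag ChIP of Hdac6 in control ESCs was compared with Flag ChIP of untagged ESCs at 36733 of 36733 listed transcription start sites (TSSs), row by row. A row is a TSS, and its value is the mean signal from 500 bp upstream to 500 bp downstream. The Hdac6 sample came from E14 mouse ESCs whose own Hdac6 gene carries a 6-His-3-FLAG (H3F) tag, upon GFP KD, which serves as the control knockdown. The untagged sample came from wild-type E14 ESCs without a stated knockdown, and both were precipitated with the Flag-M2 antibody. Knockdown was by lentivirus for 72 hr. The samples therefore differed in the tag and in the stated knockdown, and these cannot be told apart here. These are 2 of the 7 samples of the study, with 1 sample a side, so no test across samples could be made and a row was called above background by size alone.

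Hdac6 is a class II deacetylase that is mostly cytoplasmic in differentiated cells, where it deacetylates tubulin and Hsp90 and binds ubiquitin. In ESCs the study examined it as a partner of Tip60-p400, a complex that acetylates histones and exchanges H2A variants at promoters. Promoters of mammalian genes are often rich in G and C and in the CG dinucleotide, and the amount of DNA recovered in a sequencing library can vary with base composition whatever the antibody. Cells without a Flag tag give the signal that the antibody and the library yield without Hdac6.

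The Hdac6 file was normalized to 11586200 reads and the untagged file to 23146800, and 1 read was worth 0.0863 and 0.0432 ppm (reads over a position per 1000000 reads of the library), respectively. An isolated read covered 148 bp in the Hdac6 file and 299 bp in the untagged file, so untagged values were multiplied by 0.497. The median row held 10 Hdac6 reads and 12 untagged reads. Ratios are given as log2 of Hdac6 over scaled untagged signal, each plus 0.02 ppm, and intervals on single rows are exact 95% intervals of the ratio of read densities, which cover counting error only. The rows with the highest Hdac6 signal were high in untagged ESCs as well. A row on the mitochondrial chromosome held 1516 Hdac6 and 1625 untagged reads, and the highest named row, Sfi1, held 406 and 346. The 368 rows above the untagged 99th percentile, 0.175 ppm, had a median log2 ratio of -0.06, and 23 of them were called. None of these rows was eligible as a named gene.

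The sequences at both ends of the comparison show its main feature. The 250 bases upstream of the TSS are given for Zfp800, the eligible gene with the highest log2 ratio by its first row, for Cdkn1a, which the study examined by ChIP-qPCR, and for the 2 with the lowest among rows with at least 10 untagged reads (F730047E07Rik and Zfp72). They were read from the mm9 genome, 5′ to 3′ on the strand of the gene, and capitals mark CG dinucleotides.
Zfp800 (chr6:28211602-28211851, minus strand): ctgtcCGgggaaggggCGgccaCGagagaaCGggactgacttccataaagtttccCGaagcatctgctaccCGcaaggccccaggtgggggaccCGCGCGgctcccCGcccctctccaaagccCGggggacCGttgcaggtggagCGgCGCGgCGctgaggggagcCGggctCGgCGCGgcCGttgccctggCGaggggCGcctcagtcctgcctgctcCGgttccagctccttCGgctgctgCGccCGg
Cdkn1a (chr17:29230470-29230719, plus strand): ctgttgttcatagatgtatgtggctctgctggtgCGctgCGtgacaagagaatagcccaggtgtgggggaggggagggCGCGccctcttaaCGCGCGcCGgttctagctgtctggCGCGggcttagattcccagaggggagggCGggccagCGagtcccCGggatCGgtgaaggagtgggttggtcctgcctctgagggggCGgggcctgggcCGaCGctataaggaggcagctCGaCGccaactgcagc
F730047E07Rik (chr4:24432059-24432308, plus strand): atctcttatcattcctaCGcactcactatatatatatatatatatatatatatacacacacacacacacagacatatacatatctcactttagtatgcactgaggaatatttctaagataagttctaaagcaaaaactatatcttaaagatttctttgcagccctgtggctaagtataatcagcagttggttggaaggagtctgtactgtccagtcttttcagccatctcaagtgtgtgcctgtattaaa
Zfp72 (chr13:74514015-74514264, minus strand): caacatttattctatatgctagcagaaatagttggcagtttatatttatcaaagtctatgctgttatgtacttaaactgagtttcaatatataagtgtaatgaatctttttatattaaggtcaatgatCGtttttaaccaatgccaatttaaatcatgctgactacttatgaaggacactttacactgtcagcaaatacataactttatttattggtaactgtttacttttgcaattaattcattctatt
The upstream sequence of Zfp800 was 72.8% GC with 27 CG dinucleotides, and that of Cdkn1a 65.6% with 19. The sequences of F730047E07Rik (34% GC) and Zfp72 (27.2% GC) held 1 CG each. Zfp72 had 19 untagged reads and 0 Hdac6 reads, and F730047E07Rik had 18 and 0.

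Hdac6 signal was at least 2-fold above scaled untagged signal at 11809 rows (32.1%) and at least 2-fold below it at 1542 rows (4.2%). The median log2 ratio over all rows was 0.61, and the 5th and 95th percentiles were -0.91 and 1.95. Of the rows called higher, 10618 had an interval of the read ratio above 1. Rows with a RefSeq identifier were called more often (8321 of 22704, 36.6%) than rows without (3488 of 14029, 24.9%). Over 17689 gene names, taking the first row of each, 6477 (36.6%) were called.

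The rows called above background were GC rich. Their median GC content within 500 bp of the TSS was 60.8%, against 49.3% in the other rows and 39.9% in the rows called lower. Under 35% GC, 6 of 634 rows (0.946%) were called, with a mean signal of 0.0260 ppm for Hdac6 and 0.0575 ppm for untagged. Between 45% and 55% GC, 2365 of 13417 rows (17.6%) were called. At 70% GC and over, 1368 of 1505 rows (90.9%) were called, with 0.232 ppm for Hdac6 and 0.0544 ppm for untagged. Over 16 classes of GC content from under 30% to 65% and over, mean Hdac6 signal ranged from 0.0119 to 0.231 ppm and mean untagged signal from 0.0502 to 0.0896 ppm.

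**Figure D1:**
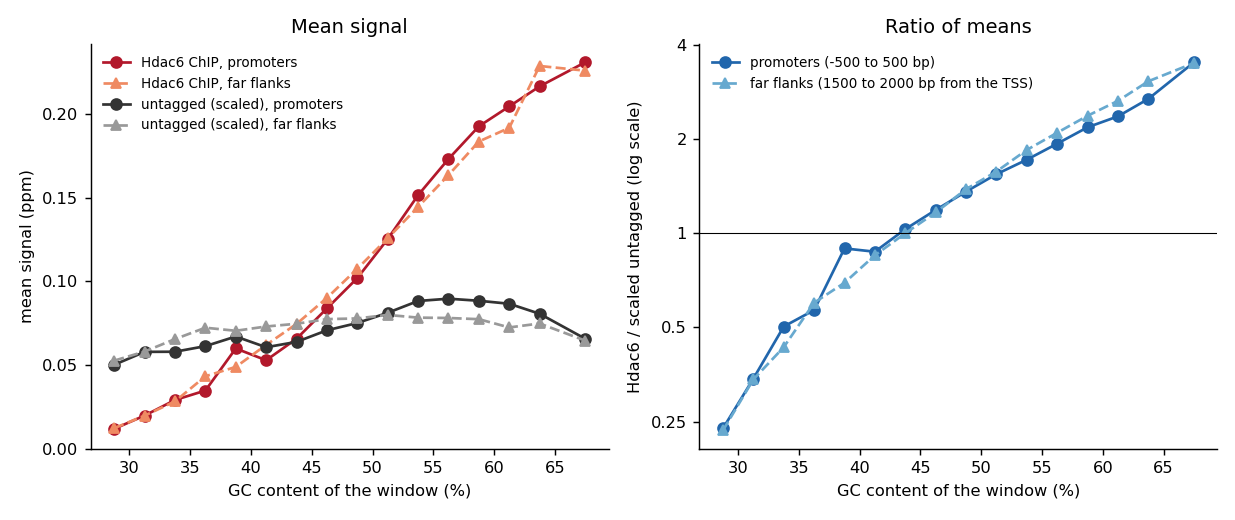
Mean signal (left, ppm) and the ratio of mean Hdac6 to mean scaled untagged signal (right, log scale) in windows grouped by GC content (percent), for promoters (circles, solid) and for windows 1500 to 2000 bp from the TSS (triangles, dashed). Hdac6 signal is higher at high GC content in promoters and far flanks alike, and both ratios go from about 0.24 in the lowest class to about 3.5 in the highest.

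The same relation was present far from promoters. The windows used for this lay between 1500 and 2000 bp from a TSS and had no further listed TSS within 1000 bp, which left 61307. There the ratio of mean Hdac6 to mean scaled untagged signal was 0.234 under 30% GC, 0.999 at 42.5% to 45%, 2.09 at 55% to 57.5% and 3.50 at 65% and over. Promoters in the same classes had ratios of 0.238, 1.03, 1.93 and 3.51. These classes held 954, 8843, 2053 and 193 flank windows. Few flank windows thus stood behind the highest class, which held 4271 promoters. Windows of equal length were then called by the same rule at both places. At 55% to 57.5% GC, 44% of flank windows and 39.1% of windows from 0 to 500 bp downstream of the TSS were called, and at 65% and over 71% and 79%. Over all GC classes the flank windows were called in 15.9% of cases, at a median GC content of 44.2%, and the downstream windows in 38.5%, at 54%. Input DNA was not analysed here, and why Hdac6 signal followed GC content was not tested.

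Hdac6 signal at promoters was therefore compared with that of flank windows of the same GC content in the same file. From -500 to 500 bp, observed signal was 1.01 times the level of GC-matched flanks in the Hdac6 file and 1.02 times in the untagged file. The other Hdac6 ChIP, titled Tip60 KD, gave 1.02. Flag ChIP of Tip60 gave 1.18 and ChIP of p400, over the 22704 rows with an identifier, gave 1.25, so the calculation returned a promoter excess in those files. The sample titled Tip60 KD has a genotype label that reads Hdac6KD, and its title was used here.

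The position of Hdac6 signal around the TSS was described in the same way. Before GC content was matched, mean Hdac6 signal in promoters was 1.60 times that in the far flanks, against 1.02 times for untagged. After matching, 500-bp windows held 1.03 times the expected Hdac6 signal from -1500 to -1000 bp, 1.05 from -1000 to -500 bp, 1.01 from -500 to 0 bp, 1.04 from 0 to 500 bp and 1.01 from 1000 to 1500 bp. In the window from -100 to 400 bp, where the mean GC content was 55.7%, Hdac6 reached 0.155 ppm with 0.151 ppm expected. The highest of the 500-bp windows in the Hdac6 file stood at 1.05 times its GC-matched level, while p400 reached 1.33 times from -600 to -100 bp.

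To match GC content, untagged signal was multiplied by the flank ratio at the same GC content. The constant added to each signal (the pseudocount) was added after that step. This left 2131 of 36729 rows (5.8%) at least 2-fold above untagged and 2683 (7.3%) at least 2-fold below. Rows with few untagged reads were changed less by this step, and Slc9a7, with 0 untagged reads, kept a log2 ratio of 3.38. Higher rows made up 88.5% of calls in either direction before matching and 44.3% after. The median log2 ratio moved from 0.61 to -0.043. Of the 11809 rows called without matching, 1954 (16.5%) stayed at 2-fold or more, which was 91.7% of the GC-matched calls. The classes were open at 65%, where 193 flank windows set the matched level. At 70% GC and over, 256 of 1505 rows (17%) were still called, with a median of 0.28.

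**Figure D2:**
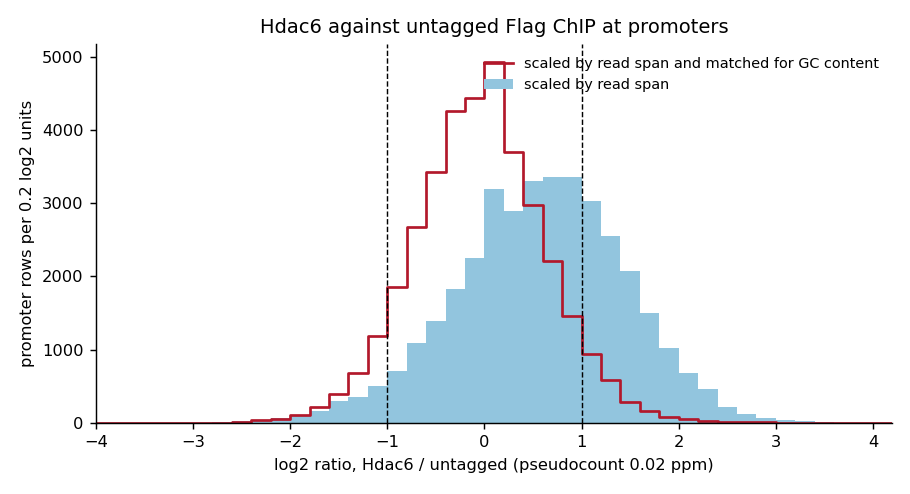
Number of promoter rows (y axis) by log2 ratio of Hdac6 to untagged signal (x axis, bins of 0.2), scaled by read span (bars) and also matched for GC content (line). Dashed lines mark 2-fold in either direction. The bars centre on 0.61 and the line on -0.043.

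Before matching, the called shares of rows with sequence motifs went with their GC content. The GC box (GGGCGG, either strand), the site of Sp1-family factors, was found between -250 and 50 bp in 37.4% of all rows and in 61.4% of called rows. Rows with it were called in 52.7% of cases and rows without it in 19.8%, and their median GC contents were 60.7% and 48.3%. With GC content matched, the shares were 5.46% and 6.01%. The TATA box (TATAAA) was found in 12.8% of all rows and in 5.95% of called rows, and its GC-matched shares were 5.90% with and 5.79% without it. Other motifs were not level after matching. Rows with the ETS core were called in 41.7% of cases and rows without it in 31.2%, but in 3.25% and 6.06% after matching. For the E-box the GC-matched shares were 4.28% with and 5.92% without it. The ratio of observed to expected CG dinucleotides was also compared within classes of GC content, above and below the class median. The called shares were 4.34% and 4.73% between 35% and 45% GC, 17.2% and 18% between 45% and 55%, 52.3% and 47% between 55% and 65%, and 85.3% and 80.7% at 65% and over. The rows with more CG in a class also held more GC, for example 60.6% against 58% between 55% and 65%, so the classes did not separate CG from GC content.

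By chromosome, 18.3% of the 1270 rows of the X chromosome were called and 43.4% of the 1644 rows of chromosome 8. Median GC contents there were 49.8% and 55.2%, and the GC-matched medians were -0.09 and 0.03. Mean signal on the X was low in both files, 0.0618 ppm for Hdac6 and 0.0404 ppm for untagged, against 0.142 and 0.0799 ppm on chromosome 1.

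Taking the first row of each gene, the 10 genes with the largest ratios had between 61.3% and 77.2% GC and at most 4 untagged reads. Zfp800, a zinc finger gene (NM_001081678, TSS at position 28211601 of chromosome 6), had 25 Hdac6 reads and 1 untagged read, a ratio of 34.2 with an interval from 8.18 to 2051. Lphn1, an adhesion G protein-coupled receptor, had 17 Hdac6 reads and 0 untagged reads and was at least 11.3-fold higher against a floor of 3 untagged reads. Slc9a7, a sodium/proton exchanger on the X chromosome, had 15 and 0 and was at least 9.99-fold higher. That floor leaves out the counting error of the Hdac6 reads, and the exact intervals began at 8.24 and 7.17. These ratios turned on few untagged reads.

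Bmi1, a Polycomb subunit that keeps Cdkn2a off (NM_007552, chromosome 2, position 18598645), had 30 Hdac6 and 3 untagged reads, 0.376 against 0.0189 ppm. Sp1, the GC-box binding factor, had 24 and 2 reads. Rab40c, Dusp5 (a MAP kinase phosphatase), Lepre1 (a collagen prolyl hydroxylase), Mink1 (a kinase) and 2310003H01Rik made up the rest, with ratios from 16.7 to 47.6. Against GC-matched flanks in its own file, Hdac6 signal at these 10 genes was between 0.832 times (Slc9a7) and 1.99 times (Lepre1) the expected level. In the Hdac6 ChIP titled Tip60 KD the range was 0.622 to 2.20 times, and Lepre1 (0.899), Bmi1 (0.795, with 12 reads) and Mink1 (0.868) were below their expected level. Untagged signal at the same genes was between 0 and 0.417 times its own expected level.

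By the first row of each gene, the 5 with the largest difference in signal were Actn2, Tcp11, Btbd9, Dnajc11 and Arpc5. Actn2, the muscle alpha-actinin (NM_033268, chromosome 13, position 12432999), had 60 Hdac6 and 25 untagged reads, a ratio of 4.83 (interval 2.96 to 7.98). Its signal was 3.90 times the GC-matched level in the Hdac6 file, 4.01 times in the Hdac6 ChIP titled Tip60 KD and 2.14 times in the untagged file. Tcp11, a testis gene, had 47 and 10 reads, a ratio of 9.29 (4.68 to 20.8), and stood at 2.62, 2.13 and 0.984 times. Btbd9 had 51 and 24 reads and stood at 2.83, 2.5 and 2.35 times, so it was high in untagged ESCs too. Arpc5, a subunit of the Arp2/3 complex, had 40 and 7 reads but 1.07 times the expected level in the other Hdac6 ChIP. With GC content matched, Tcp11 and Arpc5 kept log2 ratios of 1.33 and 1.62, and the other 3 fell under 2-fold. Clcn4-2, a chloride channel gene named after its values were seen and outside the rule because its first row was lower, had a second row with a difference of 0.522 ppm, with 50 Hdac6 and 18 untagged reads.

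**Figure D3:**
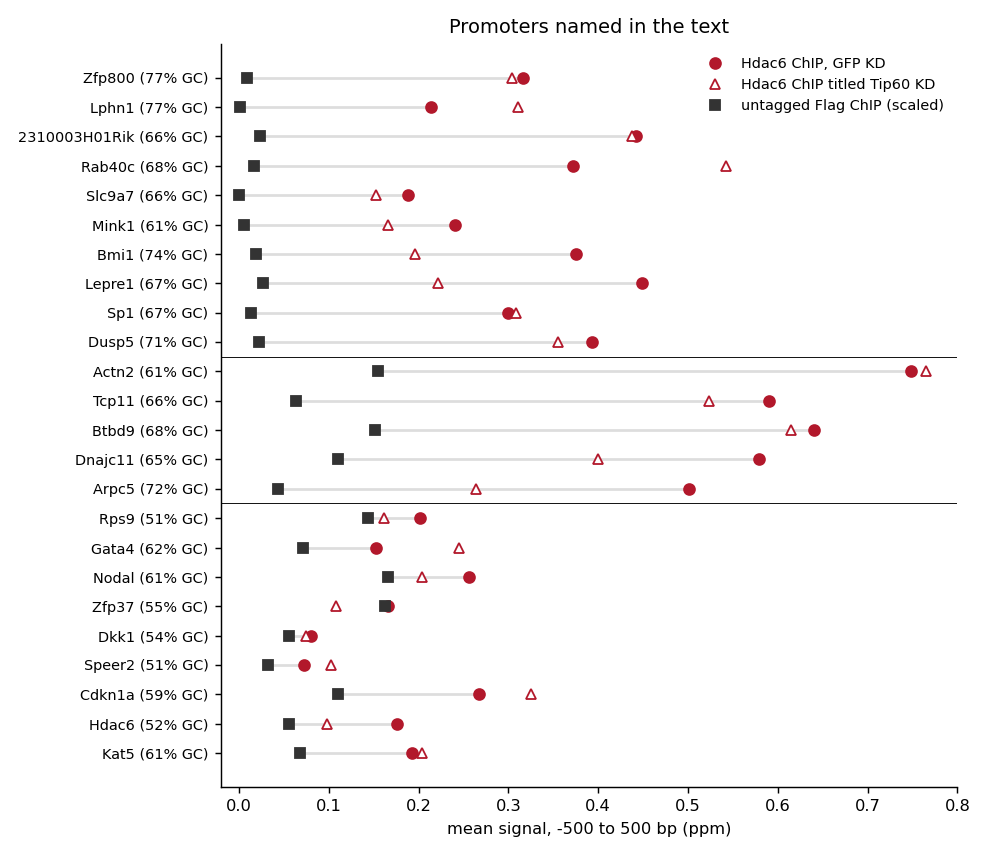
Mean signal from -500 to 500 bp (ppm) of the Hdac6 ChIP upon GFP KD (filled circles), the Hdac6 ChIP titled Tip60 KD (triangles) and the scaled untagged ChIP (squares), for the 10 genes with the largest ratio (top), the 5 with the largest difference (middle) and the genes the study examined (bottom). The top 10 lie near 0 in untagged ESCs, and the bottom group lies closer to its untagged value.

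Of the genes that the study examined by ChIP-qPCR and the genes of Hdac6 and Tip60, 9 had rows and 3 were called; Gata6 was not analysed here. Cdkn1a, the p53 target that encodes p21 (NM_007669, chromosome 17, position 29230720), had 21 Hdac6 and 17 untagged reads, 0.267 against 0.110 ppm and a ratio of 2.43 (1.24 to 4.98). Its GC-matched log2 ratio was 0.04, while Tip60 was at 0.494 ppm and p400 at 0.368 ppm. Kat5, which encodes Tip60, had 15 and 11 reads, a ratio of 2.83 and a GC-matched log2 ratio of 0.09. The first Hdac6 row had 14 and 9 reads, a ratio of 3.19 (1.25 to 8.14). The 4 rows of Hdac6 itself had log2 ratios from 1.07 to 1.38 and GC-matched values from -0.07 to 0.88.

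The other genes of that group were not called. Gata4, an endoderm factor, had 12 Hdac6 and 11 untagged reads, a ratio of 2.13 (0.880 to 5.45) that fell under 2-fold with the pseudocount. Nodal, a TGF-beta ligand, had 20 and 26 reads, and the ribosomal gene Rps9 had 16 and 23. Zfp37 had 13 and 26 reads, with equal signal at 0.166 and 0.162 ppm. Dkk1, a Wnt antagonist, had 6 and 9 reads, and Speer2, the study's negative control locus, of a repeated testis family whose reads can match several copies, had 6 and 5, a ratio of 2.25 (0.610 to 9.93) that also fell under 2-fold with the pseudocount. The intervals of these 6 genes included ratios of 1 and of 2, so a 2-fold difference was not detectable at this depth.

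Of 40 gene lists, 38 had rows, and 28 of these had a larger share called than all rows (32.1%). The lists for microRNA and small nucleolar RNA genes had 0 rows. The lists with the lowest median GC content, for vomeronasal and taste receptors and for olfactory receptors, also had the lowest medians. List medians ranged from -0.43 to 1.15 before matching and from -0.54 to 0.30 after it.

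By median log2 ratio, the highest lists were those for Tip60-p400 subunits (1.15), p53 targets (1.15), histone deacetylases (1.09) and the Forkhead, Sox and T-box factors (1.08). Of 92 rows for Forkhead, Sox and T-box factors, which specify lineages, 51 (55.4%) were called, with a median log2 ratio of 1.08 at a median GC content of 61%. Sox7, Sox8 and Foxn2 were highest, with 12, 25 and 25 Hdac6 reads against 2, 7 and 8 untagged reads. Sox5 and Foxp2 were lowest, and Sox5 (40.8% GC) had 0 Hdac6 and 16 untagged reads. With GC content matched, 2 of the 92 rows (2.17%) were called, against 5.8% of all rows, and the median was 0.05. Wnt ligands and receptors had 24 of 47 rows (51.1%) called and 3 (6.38%) after matching, and Wnt4 had 14 Hdac6 and 3 untagged reads.

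Lists of genes near to Hdac6 in function had larger shares called than all rows (32.1%). Their median GC contents lay between 57.85% and 59.65%. Of all promoters at 57.5% to 60% GC, 47.8% were called. After matching, 5.8% of all rows were called. Of 28 rows for histone deacetylases (17 genes), 17 (60.7%) were called and 1 (3.57%) after matching. Sirt1, an NAD-dependent deacetylase, had 26 Hdac6 and 5 untagged reads, and Hdac2, a subunit of nuclear corepressor complexes, had 27 and 11. Hdac4 (44% GC) had 4 and 16. Of 30 rows for Tip60-p400 subunits (18 genes), 16 (53.3%) were called and 3 (10%) after matching. Actb, whose product is also the actin subunit of the complex, had 44 and 20 reads, Trrap, the scaffold that activators bind, 28 and 12, and Dmap1 21 and 10, whereas Yeats4 had 11 and 22. Of 30 rows for cytoplasmic partners and substrates of Hdac6, 15 (50%) were called and 1 (3.33%) after matching. Ywhaz, a 14-3-3 protein, had 23 Hdac6 and 7 untagged reads, and Dctn1, a dynactin subunit, had 2 and 12.

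Lists for p53 targets and the Nodal pathway had 13 of 20 (65%) and 10 of 20 (50%) rows called, against 32.1% of all rows. Bbc3, which encodes the apoptosis activator Puma, had 37 Hdac6 and 7 untagged reads and a GC-matched log2 ratio of 1.42. It stood at 2.07 times the GC-matched level in the Hdac6 file. In the Hdac6 ChIP titled Tip60 KD it had 16 reads, 1.05 times that level. Sesn1 had 19 and 6, and Tnfrsf10b, a death receptor, had 5 and 18. In the Nodal list, Smad2 had 19 and 4 reads and Tdgf1, the Nodal coreceptor, 7 and 14. After matching, 2 and 3 of the 20 rows were called (10% and 15%), against 5.8% of all rows.

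Housekeeping lists lay nearer to all rows, of which 32.1% were called and 5.8% after matching. Of 101 rows for cytosolic ribosomal proteins, 44 (43.6%) were called and 1 after matching. Fau and Rpl22 had 24 and 30 Hdac6 reads against 9 and 14, and Rpl30 had 6 against 19. Of 102 rows for the respiratory chain and ATP synthase, 37 (36.3%) were called and 0 after matching. Ribosomal protein promoters held 1.22 times the GC-matched Hdac6 level and 1.38 times the untagged one, so their excess over flanks was present without a tag. Proteasome subunits had 9 of 36 rows (25%) called, and Psmb4 had 9 Hdac6 and 26 untagged reads.

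Core pluripotency genes had 8 of 23 rows (34.8%) called, near the share of all rows (32.1%). After matching, 0 were called, against 5.8% of all rows, in a list too short to tell these apart. Klf4 and Fgf4 were highest, with 20 and 21 Hdac6 reads against 9 and 10. Sox2 had 10 Hdac6 and 22 untagged reads, a log2 ratio of -0.19. The list stood at 1.09 times the GC-matched level for Hdac6 and 1.40 times for untagged.

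Replication-dependent histone genes, which supply chromatin in S phase, were seldom called. At a median GC content of 53.5%, 6 of 62 rows (9.68%) were called, against 32.1% of all rows, with a median of 0.10. Hist1h4d was highest with 19 Hdac6 and 13 untagged reads, and Hist1h1t lowest with 2 and 18. With GC content matched, 0 were called higher, 16 were called lower and the median was -0.54. Their mean signal was 0.826 times the GC-matched level for Hdac6 and 1.30 times for untagged.

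Receptor families in AT-rich clusters were at the bottom. Of 1089 rows for olfactory receptors (median GC 39.3%), 100 (9.18%) were called higher and 149 lower, with a median of -0.10. Over all rows, 32.1% were called higher and 4.2% lower. Olfr279 was among the highest with 35 Hdac6 and 14 untagged reads, and Olfr470 had 0 and 17. Of 250 rows for vomeronasal and taste receptors (37.3% GC), 12 (4.80%) were called, and Vmn2r11 had 0 Hdac6 and 17 untagged reads. After matching, 118 olfactory receptor rows (10.8%) were called higher and 63 lower, with a median of 0.16. Over all rows, 5.8% were then called higher and 7.3% lower. Mean Hdac6 signal at olfactory receptors was 0.0526 ppm, against 0.140 ppm over all rows, so few reads set these calls. Olfactory receptors were below the flank level in both files, 0.897 times for Hdac6 and 0.742 times for untagged.

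**Figure D4:**
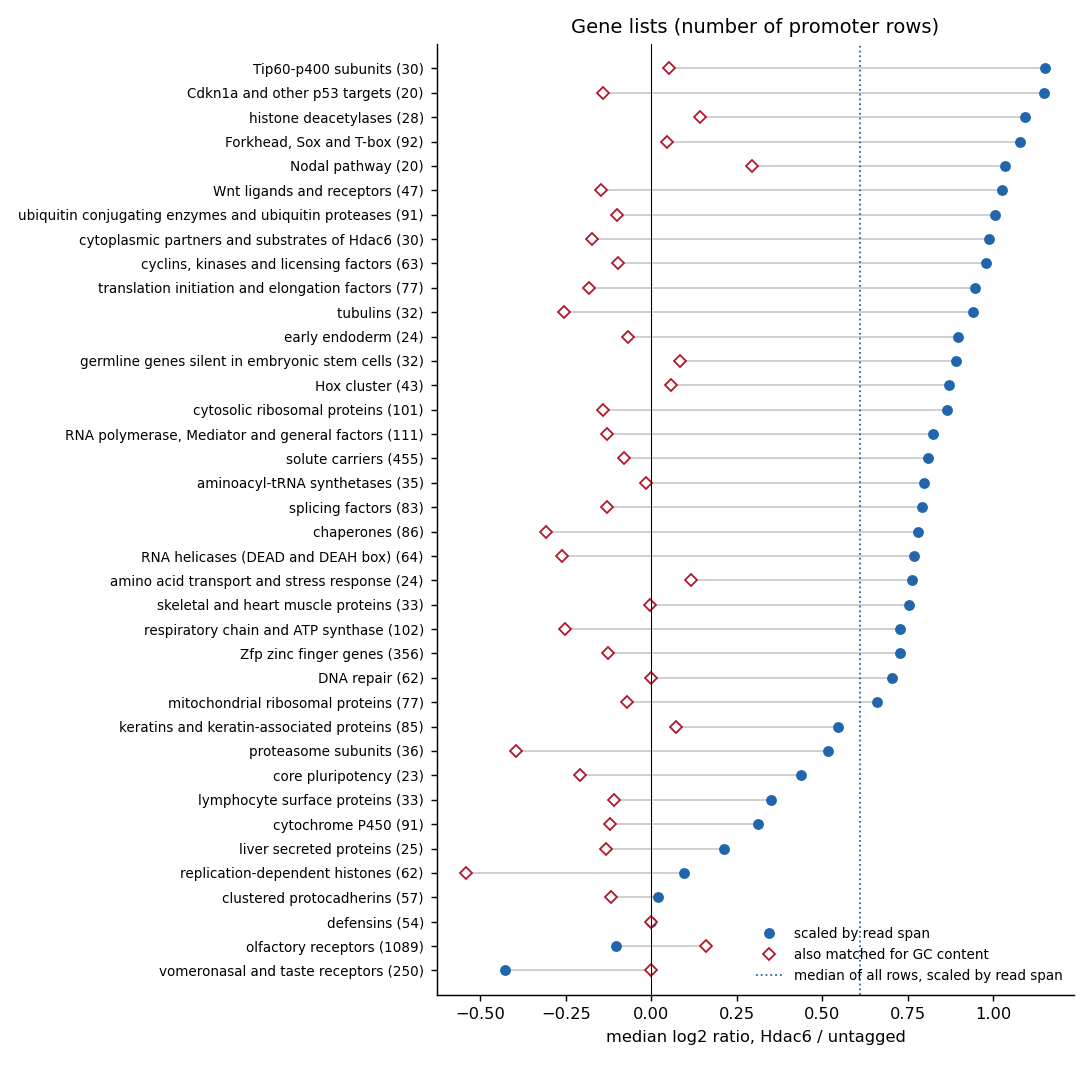
Median log2 ratio of Hdac6 to untagged signal for 38 gene lists (rows in parentheses), scaled by read span (filled circles) and also matched for GC content (diamonds); the dotted line is the median of all rows, 0.61. Circles span -0.43 to 1.15, and diamonds lie between -0.54 and 0.30.

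Rows that were high for Hdac6 were also sought without the untagged file. In the Hdac6 file, 907 of 36729 rows (2.47%) stood at 2 times or more their GC-matched flank level. In the Hdac6 ChIP titled Tip60 KD, 1124 did, 3.06% of all rows. Common to both were 244, which was 26.9% of the former and 21.7% of the latter. The untagged file had 1034 such rows, 2.82% of all rows. Of these, 119 were shared with the Hdac6 file, 13.1% of the Hdac6 rows. Both overlaps were thus above the shares over all rows. The 2131 rows called with GC content matched and the 2683 called lower were then looked up in the Hdac6 ChIP titled Tip60 KD. That sample, which the calls did not use, was at 1.15 and 0.874 times its GC-matched level. The 2 samples that set the calls differed more. Control Hdac6 was at 1.43 and 0.519 times, and untagged at 0.540 and 1.41 times. Of the 2131 rows, 256 lay at 70% GC and over, in the open class.

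Of the 244 rows, 134 were under 1.5 times in untagged ESCs, and 65 of these had a gene name. Trpv2, a cation channel, had 17 reads in each Hdac6 file and 15 untagged reads. Its Hdac6 signal was 2.84 and 3.58 times the GC-matched level. Dgcr8, the partner of Drosha in microRNA processing, had 15 and 16 Hdac6 reads and 10 untagged, 2.59 and 3.49 times the level. Tpst1, a tyrosine sulfotransferase, had 15, 15 and 7, and Hdac10, a polyamine deacetylase of the class of Hdac6, had 31, 26 and 16. These genes were chosen after their values were seen and are a description.

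Hdac6 signal was then set beside p400, whose ChIP used a different antibody. Promoters were put in 10 equal groups of p400 signal among promoters of like GC content. From the lowest to the highest group, Hdac6 signal went from 0.661 to 1.29 times the GC-matched level, and the other Hdac6 ChIP from 0.679 to 1.30. Untagged signal went from 0.590 to 1.44 times and Tip60 from 0.613 to 2.13. The Hdac6 range was narrower than that of the untagged file. The share of rows called above background was 35.3% in the lowest and 34.3% in the highest group, and 8.89% and 2.68% with GC content matched.

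**Figure D5:**
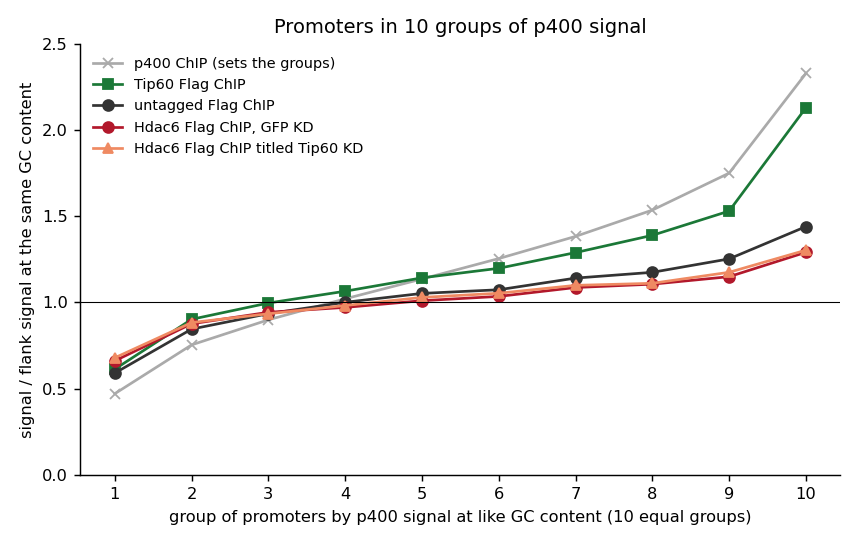
Mean signal relative to flank windows of the same GC content (y axis) in 10 groups of promoters ranked by p400 signal within classes of GC content (x axis). Tip60 reaches 2.13 in the top group, untagged 1.44 and both Hdac6 samples about 1.3.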

How the data were processed

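ChIP-seq signal of 5 samples was used, 2 for the comparison and 3 (Hdac6 titled Tip60 KD, Tip60 and p400 upon GFP KD) beside it. The deposited values are coverage signal as the authors calculated it. Reads were mapped to mm9 with Bowtie (CASAVA 1.8.2 before it, per the submitters' processing notes), identical reads were kept, reads with several matches were placed at random, reads were extended, and signal was binned every 20 bp. The methods give the same extension for every library, but isolated reads spanned 148 bp in the Hdac6 file and 299 bp in the untagged file. Kept duplicates and random placement can raise single rows in any file.

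Reads per row were summed signal divided by the value of 1 read and by the read span, rounded (all values were whole multiples within 0.02 read). GC content came from the mm9 genome, in classes of 2.5% from 30% to 65%, open at both ends. A row was called at 2-fold, with no p-value. The genes named are the 10 largest ratios with at least 10 Hdac6 reads, the 5 largest differences, the genes of the study, and the highest and lowest of each list, leaving out the 1% of rows that untagged ESCs had highest, and taking the first row of a gene. The comparison, lists and rules were chosen with earlier results of these data known, and the comparisons with GC-matched flanks by library, the sequence features and the p400 groups after seeing the data. Intervals were exact 95% conditional binomial intervals from scipy 1.17.1, with Python 3.11.15, numpy 2.4.6 and matplotlib 3.10.9. Scripts were tested on simulated data. The other 2 samples were not used here. A row and a promoter sequence that the rules would name are not reported here.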

Additional observations from a re-analysis of the deposited data

How the results depend on the processing

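With 1 sample a side, depth limited single rows: the interval of 1191 called rows included 1, and 2280 rows lay between 1.9- and 2.1-fold. No paired analysis was possible because each condition has 1 sample. The count of rows above background, 11809, became 18781 at 1.5-fold, 4274 at 3-fold, 6981 in the window from -1000 to 1000 bp, 2849 without scaling the untagged file, 2131 with GC content matched, 6477 with 1 row per gene, and 907 against GC-matched flanks of the Hdac6 file (added once the data had been seen). The other 8 alternatives gave between 8343 and 15438. Without scaling, 29.2% of calls in either direction were higher, since untagged reads then count for their longer span. The median log2 ratio, 0.61, was 0.67 and 0.48 with pseudocounts of 0.01 and 0.05 ppm, 0.77 and 0.44 in the windows from -100 to 300 bp and from -1000 to 1000 bp, -0.19 without scaling, 0.43 with far flanks made equal, 0.53 against the far flank of the same row, -0.043 with GC content matched, 0.68 over rows with at least 10 reads and 0.73 with 1 row per gene. The lists with a larger share called than all rows went from 28 to 16 with GC content matched. Many list medians changed sign there. Cytosolic ribosomal proteins went from 0.86 to -0.14 and chaperones from 0.78 to -0.31, while olfactory receptors went from -0.10 to 0.16. Among lists with a median of at least 2-fold before matching, the sign changed for Wnt ligands and receptors (-0.15) and p53 targets (-0.14). It also changed for ubiquitin conjugating enzymes and proteases (-0.10). The GC-matched level was measured in flanks of the same samples, and the cause of these shifts was not tested.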

Other observations

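Further lists are given beside all rows, of which 32.1% were called and 5.8% after GC content was matched. Of 455 rows for solute carriers, 187 (41.1%) were called and 21 (4.62%) after matching. Slc6a9, a glycine transporter, had 26 Hdac6 and 6 untagged reads. Of 356 rows for Zfp zinc finger genes, 118 (33.1%) were called and 25 (7.02%) after matching, both near the shares of all rows. Zfp777 and Zfp316 had 22 and 32 Hdac6 reads against 2 and 5, whereas Zfp318 had 1 against 19. Clustered protocadherins, which give neurons their identity, had 7 of 57 rows (12.3%) called and 7 called lower, at a median GC content of 46%. Pcdhac1 (57% GC) had 17 Hdac6 and 8 untagged reads, and Pcdhb21 (41% GC) had 1 and 23. Cytochrome P450 genes had 9 of 91 rows (9.89%) called, with Cyp26a1, the retinoic acid hydroxylase, at 14 and 3 reads. Germline genes silent in ESCs had 15 of 32 rows (46.9%) called and 0 after matching, and Tdrd6 had 19 and 9 reads. Lymphocyte surface proteins had 5 of 33 rows (15.2%) called, and Cd40lg had 0 Hdac6 and 11 untagged reads.

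The eligible genes with the lowest GC-matched ratios had almost no reads in the control Hdac6 ChIP, which is part of how they were chosen. Baz2b, a bromodomain gene, had 0 Hdac6 and 18 untagged reads at 48.7% GC, and Nras 1 and 16 at 53.4%. In the Hdac6 ChIP titled Tip60 KD the same rows stood at 1.13 and 0.960 times their GC-matched level. These are the 2 lowest GC-matched ratios among eligible genes with at least 10 untagged reads. Choosing rows for low control counts can by itself give higher values in a sample not used for the choice. The difference was not tested.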
